A study of Rattus norvegicus with 125 samples.

Results

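Galanin (Gal) and secretin (Sct) are genes for secreted peptides, and their probe sets were followed on every array of a rat study of inhaled phosphine (PH3), a fumigant gas that poisons mitochondrial respiration. The platform annotation gives the symbol Gal to 1 probe set (1387088_PM_at) and Sct to 1 (1387257_PM_at), so 2 of 31139 probe sets were described. The genes were chosen by the PH3 minus Air differences of their signals, Gal for high values in heart and lung and Sct for high values in kidney. Those tissues are therefore given as levels and differences with no test, and tests are given only for the tissues that did not enter the choice.

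The rats were adult male Sprague-Dawley animals. PH3 rats breathed 387 ppm of the gas for 40 min in a whole-body chamber, a product of 15480 ppm×min that the submitters class as a low exposure, and Air rats were the controls. RNA of frozen tissue powder was labelled by a 3' method and read on Affymetrix arrays, 29 of heart, 21 of lung, 32 of kidney, 32 of brain and 11 of liver, 125 in all from 48 rats. The groups were PH3 and Air at 1, 3, 6 and 24 h after exposure in heart, kidney and brain, at 3 h, 24 h and 1 week in lung, and at 6 h in liver, which also had a PH3 group at 3 h without an Air group. Groups of 4 rats were the rule. The exceptions were 3 PH3 and 2 Air rats for the heart at 24 h, 3 PH3 rats for the liver at 3 h, 3 PH3 rats for the lung at 1 week and 2 Air rats for the lung at 3 h. Tissues of 1 rat enter several groups, so tissues are not independent sets of animals. Levels are RMA log2 signals, where a step of 1 is a doubling, and they can be compared between arrays for the same probe set but not between probe sets.

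The arrays carried the markers of their labelled tissue. The mean level of the cardiomyocyte markers was 12.87 to 13.31 on heart arrays, that of alveolar type 2 markers 12.35 to 12.96 on lung arrays, that of proximal tubule markers 11.39 to 11.81 on kidney arrays, that of neuron markers 10.01 to 10.32 on brain arrays and that of hepatocyte markers 12.70 to 13.01 on liver arrays. Within the heart, the array of PH3 rat 141 at 6 h had the lowest mean correlation with its own group, 0.974, against 0.984 to 0.986 for the other PH3 arrays at that time. The differences of Gal and of the list members that passed in heart at 6 h are given with and without it.

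Gal encodes the precursor of galanin, a neuropeptide that acts on the G protein-coupled receptors Galr1, Galr2 and Galr3. It is made by neurons of the hypothalamus and brain stem and by sympathetic, sensory and enteric neurons, and in rats it is known as one of the peptides that sympathetic and sensory neurons produce after nerve injury. Sct encodes secretin, the hormone of the small intestine that makes the pancreas release bicarbonate. Secretin acts through Sctr, a receptor that raises cAMP, and in the rodent kidney it has been linked to water reabsorption in the collecting duct.

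The region before the transcription start of Gal is shown because Gal was chosen on differences in 2 tissues, and the letters searched in it are in capitals. The sequence is the 250 bases 5' of the start in RefSeq's GRCr8, chr1:210084573-210084822 on the minus strand.

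Gal: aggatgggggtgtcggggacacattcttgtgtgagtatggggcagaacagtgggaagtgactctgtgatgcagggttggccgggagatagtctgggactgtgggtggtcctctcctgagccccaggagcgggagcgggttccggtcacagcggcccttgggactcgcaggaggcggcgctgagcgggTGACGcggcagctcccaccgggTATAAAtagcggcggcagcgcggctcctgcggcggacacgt

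The search covered both strands of a window of 300 bases, 250 before and 50 after the start. TATAAA, the core of a TATA box, begins 41 bases before the start, and 14.2% of 33469 rat windows of this length hold it. TGACG, one side of the cAMP response element, begins 63 bases before the start and occurs in 21.2% of the windows. The complete cAMP response element TGACGTCA (in 1.83% of windows), the AP-1 site TGANTCA (7.33%), the STAT site TTCNNNGAA (8.87%) and the palindromic glucocorticoid response element (0.0149%) have no match in the Gal window. TGACGTCA contains TGACG, so these searches overlap.

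In heart, Gal was higher in PH3 rats than in Air rats through the first hours and near the Air level by the next day. At 1 h its level in PH3 hearts was 6.63, 7.22, 5.31 and 6.84 on the arrays of rats 98, 109, 115 and 116, against 5.25, 5.30, 5.12 and 4.91 in Air hearts. The mean difference was 1.35, or 2.56-fold. All 4 PH3 values lay above all 4 Air values, as they did for 1.9% of all genes in that comparison, but rat 115 exceeded the highest Air heart only slightly. At 3 h the PH3 hearts had 5.11, 6.01, 6.93 and 7.38 (rats 105, 111, 122 and 152), against 5.10, 4.83, 4.84 and 5.22 in Air hearts. Here the groups overlapped because rat 105 was within the Air range, and the mean difference was 1.36, or 2.57-fold.

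At 6 h the PH3 hearts spread widest. Gal was 6.74, 7.92, 6.18 and 10.78 in PH3 rats 128, 134, 140 and 141, against 5.07, 4.85, 5.44 and 5.22 in Air rats. The means were 7.90 ± 2.05 in PH3 hearts and 5.14 ± 0.25 in Air hearts (SD, n = 4 each), a difference of 2.76 or 6.78-fold. Without PH3 rat 141 the difference was 1.80, or 3.49-fold, and the other 3 PH3 hearts still lay above every Air heart. The groups did not overlap, which held in the same direction for 4.76% of all genes at 6 h. At 24 h Gal was 5.44, 4.45 and 5.44 in PH3 hearts, against 5.08 and 4.97 in Air hearts, a difference of 0.09 with overlapping groups.

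PH3 rats with the same exposure and time differed widely among themselves. Over 1, 3 and 6 h, 10 of 12 PH3 hearts stood at 6.01 or more, and the remaining 2 at 5.31 or less, while the 12 Air hearts ranged from 4.83 to 5.44. By the size of its difference Gal ranked 11 of 13438 genes at 1 h, 4 at 3 h and 5 at 6 h. These ranks are part of what chose the gene.

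In lung, Gal was high in all PH3 rats at the first time sampled. At 3 h the PH3 lungs had 7.76, 6.74, 6.89 and 7.23 (rats 147, 148, 152 and 154), against 4.78 and 5.40 in the 2 Air lungs. The means were 7.15 ± 0.45 in PH3 lungs (SD, n = 4) and 5.09 ± 0.44 in Air lungs (SD, n = 2), a difference of 2.06 or 4.17-fold. The groups were well apart, but with 2 Air arrays 15.3% of all genes also had every PH3 lung above every Air lung. Rat 152 gave both a heart and a lung at 3 h, with Gal at 7.38 and 6.89.

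No such separation was seen at the later times in lung. At 24 h Gal was 5.37, 5.01, 4.87 and 5.05 in PH3 lungs and 4.58, 5.47, 4.56 and 4.90 in Air lungs, a difference of 0.20. At 1 week it was 5.23, 4.87 and 5.43 in PH3 lungs and 5.50, 5.17, 4.70 and 5.66 in Air lungs, a difference of -0.08. The groups overlapped at both times.

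**Figure D1:**
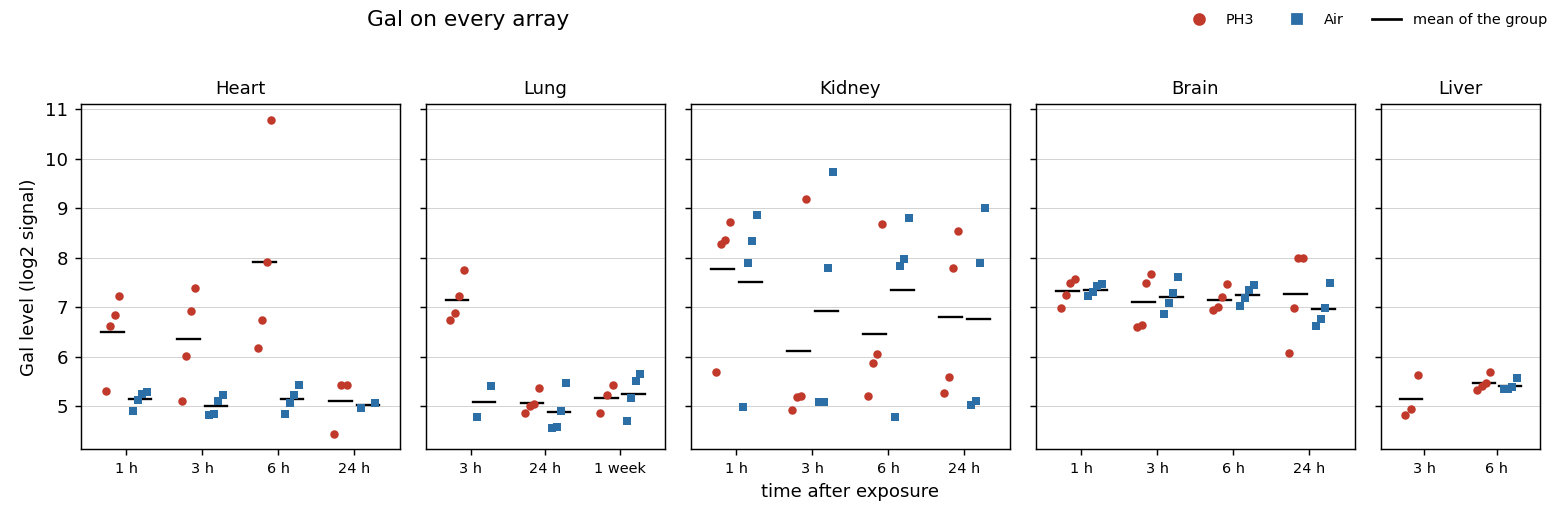
Gal level (log2 signal) on every array by tissue and time after exposure, PH3 as red circles left of Air as blue squares, with the mean of each group as a black line. PH3 hearts at 1, 3 and 6 h and PH3 lungs at 3 h reach levels above 6.0, which no Air heart or lung does, and kidney values of both groups fall into a low and a high range.

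In brain, where galanin neurons are a normal component, Gal did not pass the test at any time. The values ran from 6.08 to 8.0 on PH3 arrays and from 6.61 to 7.62 on Air arrays, with medians of 7.23 and 7.26 (n = 16 each). The differences were -0.03 at 1 h, -0.11 at 3 h, -0.10 at 6 h and 0.30 at 24 h, with adjusted p of 0.719 to 1.00 by limma and 95% intervals that reached -0.722 at the low end and 0.914 at the high end. A difference of 2.76, as in heart at 6 h, lies outside all 4 intervals, and a rise of 0.5 lies inside them. The share of all genes that passed was 0.00744% at 1, 3 and 6 h each and 0.0298% at 24 h.

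At 1 h the brain arrays had 6.98, 7.58, 7.49 and 7.24 in PH3 rats (98, 109, 115 and 116) and 7.43, 7.46, 7.23 and 7.30 in Air rats. PH3 rat 115, the lowest of the PH3 hearts at that time, was not low in brain. At 3 h the values were 6.64, 7.49, 7.68 and 6.60 in PH3 brains and 7.08, 7.28, 6.87 and 7.62 in Air brains. At 6 h they were 7.21, 7.0, 6.94 and 7.48 in PH3 brains and 7.35, 7.45, 7.03 and 7.18 in Air brains. PH3 rat 141, with 10.78 in heart at 6 h, had 7.48 in brain. That was the highest brain value at 6 h, slightly above the highest Air brain of that time (7.45), and within the Air range of all times. The widest spread in brain was at 24 h. PH3 brains had 6.08, 8.0, 7.99 and 6.99 (rats 70, 85, 91 and 149), against 6.98, 6.76, 6.61 and 7.50 in Air brains. The lowest value and the 2 highest values of all brain arrays were among these PH3 rats. Beside them, the mean level of 8 measured of 9 hypothalamus markers ran from 4.47 to 6.39 on PH3 arrays and from 5.61 to 6.50 on Air arrays at 24 h, and its part in the spread of Gal was not tested.

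In kidney the Gal values fell into separate ranges that did not follow exposure. Of 32 kidney arrays, 15 had 4.78 to 6.06 and 17 had 7.78 to 9.72, and no array lay in the 1.72 between them. The next widest gap was 0.545. The low range held 9 PH3 and 6 Air arrays, and the high range 7 PH3 and 10 Air arrays.

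Both ranges occurred in every group of 4 kidneys. At 1 h Gal was 8.37, 5.70, 8.73 and 8.27 in PH3 kidneys and 4.99, 7.89, 8.33 and 8.86 in Air kidneys. At 3 h it was 4.92, 5.21, 9.18 and 5.20 in PH3 kidneys and 5.09, 9.72, 7.79 and 5.09 in Air kidneys. At both times PH3 and Air arrays stood in each range. At 6 h it was 5.88, 8.68, 5.20 and 6.06 in PH3 kidneys and 4.78, 8.80, 7.97 and 7.83 in Air kidneys. At 24 h it was 5.26, 7.78, 8.54 and 5.60 in PH3 kidneys and 9.0, 7.90, 5.02 and 5.10 in Air kidneys.

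The differences were 0.25, -0.80, -0.89 and 0.04 at 1, 3, 6 and 24 h, with adjusted p of 0.860 to 1.00 by limma. The 95% intervals ran from -3.32 to 2.67 over the 4 times, so a rise of 1.35, as in heart at 1 h, lies inside all of them. All genes passed at shares of 0.223%, 0.104%, 0.127% and 0.0149% at those times. The adrenal gland lies on the kidney, and its medulla makes galanin in rats. All 6 adrenal medulla markers were low on every kidney array, including Pnmt, the enzyme that makes adrenaline (3.30 to 3.83), and Dbh, which makes noradrenaline (3.60 to 4.47). The mean of the 6 was 3.59 to 4.14 on PH3 arrays and 3.62 to 3.87 on Air arrays. PH3 rat 122, with the highest Gal of the PH3 kidneys, 9.18, also had the highest marker mean of all kidneys, 4.14, and the part of these markers in the Gal level was not tested.

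In liver Gal was low in both groups. At 6 h it was 5.70, 5.47, 5.34 and 5.42 in PH3 livers and 5.40, 5.34, 5.58 and 5.36 in Air livers, a difference of 0.06 with an adjusted p of 0.915 by limma (95% interval -0.333 to 0.457), in a comparison where 0.238% of all genes passed. The 3 PH3 livers at 3 h had 5.64, 4.95 and 4.83. Over brain, kidney and liver, Gal passed in 0 of 9 comparisons by limma, and 0 of the 9 had an unadjusted p under 0.05. The F test of whether the difference varied with time gave adjusted p = 0.952 in brain and 0.944 in kidney, and 0% of all genes passed it in either tissue.

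Among Air rats the median Gal level was highest in kidney, at 7.86 with a range of 4.78 to 9.72 (n = 16), followed by brain with 7.26 and 6.61 to 7.62 (n = 16). Liver (5.38, range 5.34 to 5.58, n = 4), heart (5.09, 4.83 to 5.44, n = 14) and lung (5.04, 4.56 to 5.66, n = 10) followed. By mean, kidney (7.13) and brain (7.20) stood the other way round. The range of kidney spanned those of brain, liver and heart and overlapped that of lung, which reached lower. Air kidneys stood at 4.78 to 5.10 or at 7.79 to 9.72, so none lay within the range of Air brains. Brain lay above liver, heart and lung without overlap, and those 3 overlapped each other. The highest PH3 heart, at 10.78, and the highest PH3 lung, at 7.76, exceeded every Air brain.

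Sct had a higher mean in PH3 kidneys than in Air kidneys at every time, with the widest difference at 3 h. The Air kidneys lay near the low end of the arrays, with a median of 3.94, the same as in Air hearts, and were not shown to be above background, so the folds are those of the signals. At 1 h its level was 4.62, 4.40, 5.08 and 5.41 in PH3 kidneys (rats 98, 109, 115 and 116), against 3.90, 3.99, 3.94 and 4.41 in Air kidneys. The difference was 0.82, or 1.76-fold, and 1 PH3 kidney fell just below the highest Air kidney. At 3 h the PH3 kidneys had 5.24, 5.22, 6.03 and 5.11 (rats 105, 111, 122 and 152), against 3.82, 3.93, 3.78 and 4.37 in Air kidneys. The means were 5.40 ± 0.42 in PH3 kidneys and 3.97 ± 0.27 in Air kidneys (SD, n = 4 each), a difference of 1.43 or 2.69-fold. All 4 PH3 kidneys lay above all 4 Air kidneys at 3 h, as did 1.61% of all genes. Without PH3 rat 122 the difference at 3 h was 1.22, or 2.32-fold.

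The later differences were smaller. At 6 h Sct was 4.07, 4.82, 4.58 and 4.61 in PH3 kidneys and 3.98, 3.70, 4.27 and 3.77 in Air kidneys, a difference of 0.59 or 1.51-fold. At 24 h it was 4.39, 4.08, 4.94 and 4.33 in PH3 kidneys and 4.31, 3.80, 4.29 and 3.86 in Air kidneys, a difference of 0.37 or 1.29-fold. Without PH3 rat 91 it was 0.20, or 1.15-fold, and PH3 rat 85, at 4.08, lay below 2 of the 4 Air kidneys. The groups overlapped at both times. Over all 4 times, 11 of 16 PH3 kidneys exceeded 4.41, the highest value of the 16 Air kidneys.

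**Figure D2:**
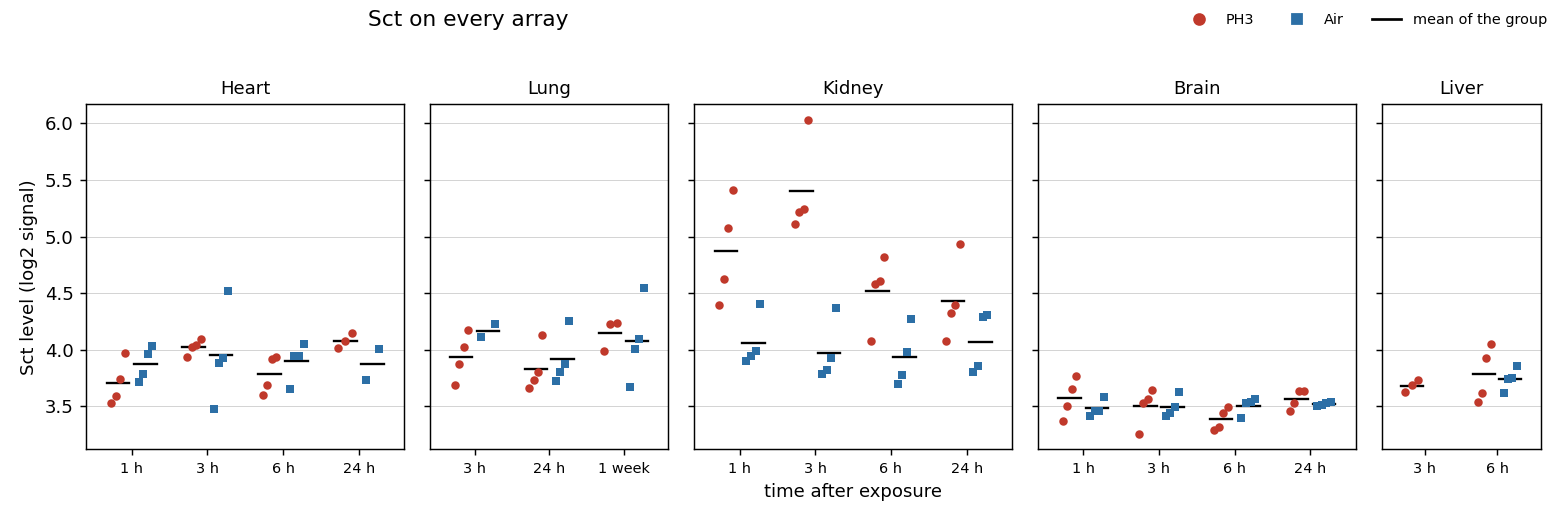
Sct level (log2 signal) on every array by tissue and time after exposure, PH3 as red circles left of Air as blue squares, with the mean of each group as a black line. The PH3 kidneys at 3 h sit between 5.11 and 6.03, above all Air kidneys, while the other tissues stay between 3.26 and 4.55 in both groups.

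Outside the kidney Sct stayed near the low end of the arrays, where a probe set can lie close to background. Its level was 3.26 to 3.76 in PH3 brains and 3.40 to 3.63 in Air brains. It was 3.53 to 4.15 in PH3 hearts and 3.48 to 4.52 in Air hearts, 3.66 to 4.24 in PH3 lungs and 3.67 to 4.55 in Air lungs, and 3.54 to 4.05 in PH3 livers and 3.62 to 3.85 in Air livers. Sct passed in 0 of the 12 comparisons of these tissues by limma (adjusted p of 0.624 to 1.00), and 0 had an unadjusted p under 0.05. The differences ran from -0.23 in lung at 3 h to 0.21 in heart at 24 h, with 95% intervals between -0.634 and 0.611.

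In heart at 24 h the 3 PH3 values of Sct, 4.07, 4.01 and 4.15, lay above the 2 Air values, 4.0 and 3.73, which 8.91% of all genes did with so few arrays. The shares of all genes that passed in heart were 0.0521% at 1 h, 0.238% at 3 h, 2.7% at 6 h and 0% at 24 h, and in lung 0.298% at 3 h and 0% at the later times. The F test of whether the difference of Sct varied with time gave adjusted p = 0.935 in brain, 0.809 in heart and 1.00 in lung, where 0%, 0.268% and 0% of all genes passed.

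Among Air rats the median Sct level was 4.05 in lung, 3.94 in heart, 3.94 in kidney, 3.75 in liver and 3.51 in brain. All neighbours in that order overlapped. Brain, at 3.40 to 3.63, lay below lung and kidney without overlap. The median of PH3 kidneys was 4.72, above the highest Air value of any tissue, 4.55. In Air kidneys the Sct signal exceeded that of 26.8% of probe sets at the median, and in PH3 kidneys that of 43.0%.

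**Figure D3:**
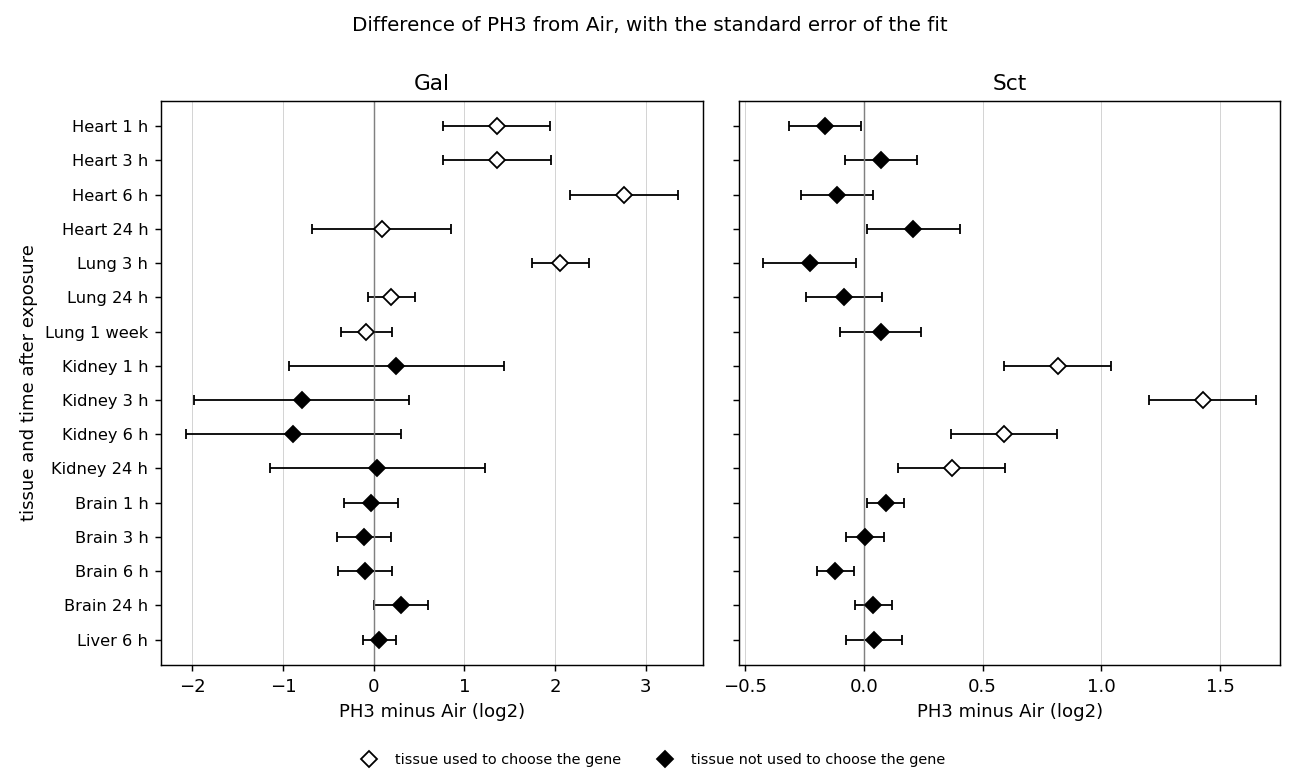
PH3 minus Air difference (log2) of Gal and Sct in the 16 comparisons, with bars of ± 1 standard error of the fit over all arrays of the tissue. Open symbols mark the tissues that chose the gene and carry no test. Gal reaches 2.76 in heart at 6 h and 2.06 in lung at 3 h, Sct reaches 1.43 in kidney at 3 h, and the Gal bars are widest in kidney.

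Other cell types could contribute to a bulk tissue, where more cells of a type and more RNA per cell cannot be told apart. For heart, 9 of 10 markers of peripheral ganglion neurons were measured. At 6 h their mean level was 4.61, 4.19, 4.77 and 4.46 in PH3 hearts (rats 128, 134, 140 and 141) and 4.13 to 4.24 in Air hearts. Rat 134, whose marker mean lay in the Air range, had a Gal level of 7.92, above those of rats 128 and 140, which had the 2 highest marker means. At 1 h the marker mean was 4.08 to 4.37 in PH3 hearts and 4.15 to 4.44 in Air hearts, and at 3 h it was 4.07 to 4.35 in PH3 hearts and 4.01 to 4.60 in Air hearts. The 2 measured of 5 Schwann cell markers had a mean of 6.64, 5.05, 5.96 and 5.73 in PH3 hearts (rats 128, 134, 140 and 141) at 6 h, against 4.12, 5.06, 4.92 and 5.36 in Air hearts, so 3 of the 4 PH3 hearts lay above every Air heart. At 1 h the Schwann mean was 5.28, 4.36, 5.27 and 6.49 in PH3 hearts (rats 98, 109, 115 and 116). Rat 109, the lowest of these, had the highest Gal among them. Of the 27 marker lists, that of the hypothalamus, which holds Trh, had the highest r with Gal over the 29 heart arrays, 0.72. The Schwann cell list had 0.22 and the ganglion neuron list 0.11. The part of these markers in the Gal level of the heart was not tested.

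In lung at 3 h, 5 of 6 cardiomyocyte markers were measured, and their mean level stood in the same order as Gal among the PH3 lungs. It was 8.91, 6.26, 6.85 and 7.33 in PH3 lungs (rats 147, 148, 152 and 154) and 6.50 and 6.80 in Air lungs. Nppa, the atrial natriuretic peptide made by atrial muscle, was 10.51, 5.88, 5.77 and 9.14 in the same PH3 lungs and 5.06 and 5.62 in Air lungs. Myl2, a light chain of ventricular muscle, was 3.73 to 4.45 in PH3 lungs and 3.69 and 4.26 in Air lungs. Rat 148, whose marker mean was below that of both Air lungs, had a Gal level of 6.74, above the Air lungs at 4.78 and 5.40. The mean of the cardiomyocyte markers had r = 0.69 with Gal over the 21 lung arrays. Markers of lung neuroendocrine cells (4 of 5 measured) had a mean of 4.0 to 4.25 in PH3 lungs and 3.86 and 4.03 in Air lungs. The part of the cardiomyocyte markers in the Gal level was not tested.

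Secretin is a gut hormone, and markers of the gut and pancreas were read in the kidney arrays. The 4 measured of 6 intestinal epithelium markers had a mean of 4.96 to 5.25 in PH3 kidneys and 4.91 to 5.05 in Air kidneys at 3 h, and the 7 pancreas markers 4.67 to 5.0 in PH3 kidneys and 4.72 to 4.78 in Air kidneys. On both, PH3 rat 122 was the highest of the 8 arrays. The 4 markers of the loop of Henle and distal tubule had a mean of 11.78, 11.49, 11.15 and 11.79 in PH3 kidneys (rats 105, 111, 122 and 152) and 11.56 to 11.95 in Air kidneys. Rat 122, with the highest Sct, was lowest on these. Of all the marker lists, that of oligodendrocytes (3 markers measured) had the highest r with Sct over the 32 kidney arrays, 0.52. The loop and distal tubule list had the lowest, -0.47. The part of any of these markers in the Sct level was not tested.

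The receptors of both peptides were read on the same arrays. Sctr, the secretin receptor, had its highest signal in heart, with a median of 7.68 (range 7.04 to 8.60, n = 15) in PH3 hearts and 7.56 (6.57 to 8.52, n = 14) in Air hearts. In kidney its median was 4.60 in PH3 and 4.56 in Air arrays, both below the median signal of the arrays, 5.08 to 5.52. In lung, brain and liver every value of Sctr was 4.35 or lower. No kidney array reached the lowest heart. Sctr at 1 h was 8.09, 8.44, 7.15 and 8.60 in PH3 hearts and 6.57, 7.12, 7.73 and 7.69 in Air hearts, a difference of 0.79 ± 0.34 (SE) that did not pass over all genes (limma, unadjusted p = 0.0255, adjusted p = 0.558). In kidney its differences were -0.12, -0.27, -0.29 and 0.09 at 1, 3, 6 and 24 h.

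Galr1, Galr2 and Galr3, the galanin receptors, had low signals in all 5 tissues, with medians below the median signal of the arrays, 5.08 to 5.52. The medians of Galr1 lay between 3.15 and 3.34, those of Galr2 between 3.75 and 4.71 and those of Galr3 between 4.04 and 4.76 over the tissues of both exposures. In heart at 6 h their differences were -0.04, -0.23 and -0.33, and in lung at 3 h 0.23, -0.23 and 0.11. Of the 4 receptors, 0 passed in any of the 16 comparisons by limma, and 4 of the 64 tests had an unadjusted p under 0.05. The share of all genes with an unadjusted p under 0.05 is not given here. Such counts, for this list and those below, therefore cannot be set against it.

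**Figure D4:**
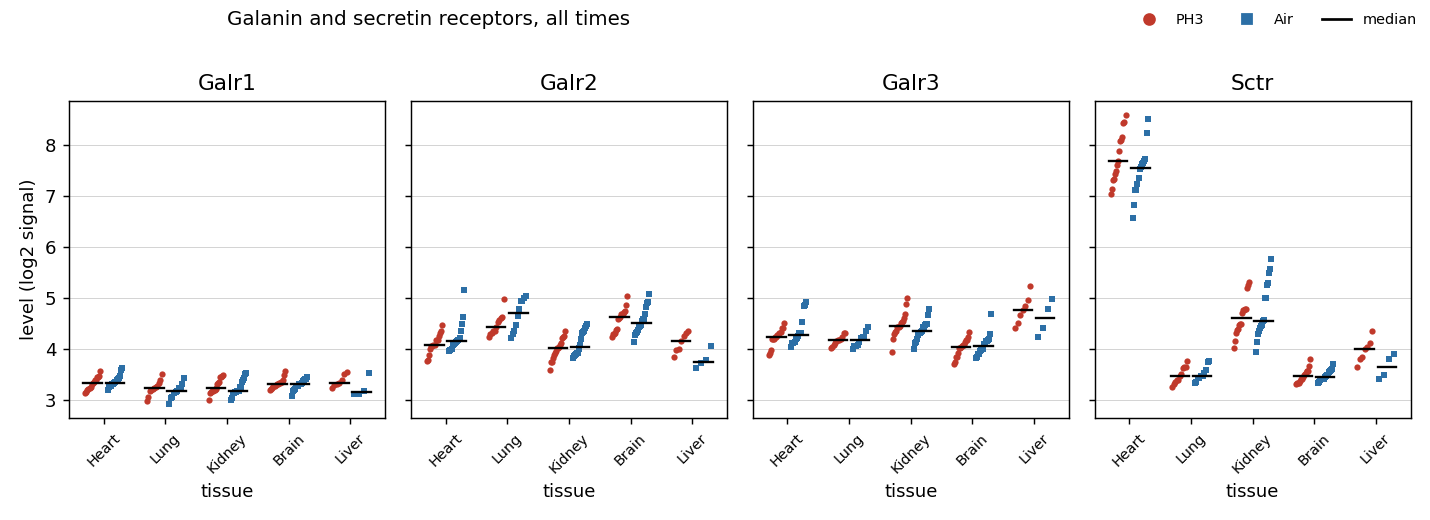
Level (log2 signal) of the galanin receptors Galr1, Galr2 and Galr3 and of the secretin receptor Sctr on every array by tissue, all times together, PH3 as red circles left of Air as blue squares, with medians as black lines. Sctr stands at 6.57 to 8.60 in heart, and the galanin receptors stay at 5.24 or lower in every tissue.

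Peptides of the same families were read on the same arrays. Of 7 related peptide genes, 5 were measured (Galp, the galanin-like peptide, and Vip, Gcg, Gip and Ghrh, relatives of secretin), and 0 passed in any comparison (limma, 4 of 80 tests with an unadjusted p under 0.05). Vip, the vasoactive intestinal peptide of neurons, had a mean of 7.53 ± 1.15 in PH3 brains and 8.33 ± 0.45 in Air brains at 24 h (SD, n = 4 each), a difference of -0.80 that did not pass (limma, adjusted p = 0.288). Of the 8 receptors of secretin's family, such as Vipr1 and Glp1r, 0 passed (9 of 128 tests with an unadjusted p under 0.05). Of 12 measured genes for peptide processing and secretory granules, such as Pcsk2, which cuts precursors, and Chga, a granule protein, 0 passed (13 of 192). Of 8 water channels and vasopressin receptors, 0 passed (17 of 128). These unadjusted counts stand without the share of all genes under the same rule. The median changes of these lists ran from -0.19 to 0.27 over the 16 comparisons, the 4 receptors included, and the median of all genes from -0.07 to 0.02.

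Among 25 measured genes for other neuropeptides and peptide hormones, 2 were higher and 0 lower, both in heart at 6 h, where 1.41% of all genes were called higher in PH3. Trh, the gene for thyrotropin-releasing hormone, was 6.03, 5.19, 5.73 and 8.76 in PH3 hearts (rats 128, 134, 140 and 141) and 3.96, 4.78, 4.06 and 4.12 in Air hearts. It rose by 2.20 ± 0.42 (SE, 4.59-fold, adjusted p = 0.00355 by limma), with no overlap. Without PH3 rat 141, the highest of both Trh and Gal, its difference was 1.42 and it still passed. Nppb, the natriuretic peptide of ventricular muscle, was 12.68, 13.03, 12.97 and 13.22 in PH3 hearts and 12.07, 12.20, 12.06 and 12.70 in Air hearts, a rise of 0.72 ± 0.17 (SE, adjusted p = 0.0174 by limma). It did not pass without PH3 rat 141, where the difference was 0.63, or without Air rat 126, 132 or 138. The list's median change in that comparison was 0.03, beside -0.01 for all genes. In the other 15 comparisons 0 of the 25 passed. In brain at 24 h the list's median change was -0.47, beside -0.02 for all genes, and 8 of the 25 had an unadjusted p under 0.05. Over all 16 an unadjusted p under 0.05 was found in 27 of 400 tests. Without the share of all genes under that rule, these counts do not show whether the list differed from other genes.

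Among 13 measured gp130 cytokine and nerve injury genes, a list that includes inducers of galanin in rat sympathetic neurons, 1 was higher and 0 lower in heart at 6 h. There 1.41% of all genes were called higher in PH3. Stat3, the transcription factor that gp130 receptors activate, was 10.65, 10.73, 10.69 and 11.33 in PH3 hearts and 10.26, 10.23, 10.45 and 10.17 in Air hearts, a rise of 0.57 ± 0.12 (SE, adjusted p = 0.00597 by limma). Without PH3 rat 141 its difference was 0.41 and it still passed. The list's median change was 0.17, and 4 of the 13 had an unadjusted p under 0.05 (limma). Over all 16 comparisons 15 of 208 tests of this list did, again without the share of all genes to set beside them. Atf3, a transcription factor of cell stress and injured neurons, was 5.38, 5.79, 6.92 and 9.87 in PH3 hearts at 6 h and 5.29 to 5.77 in Air hearts, and it did not pass there. It passed in kidney at 1 h, where 0.208% of all genes were called higher in PH3, with 8.85, 8.12, 7.78 and 6.64 in PH3 kidneys (rats 98, 109, 115 and 116) and 4.88, 5.60, 5.34 and 5.45 in Air kidneys. That rise was 2.52 ± 0.41 (5.75-fold, adjusted p = 0.00255).

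Among 11 measured cAMP and CREB targets, 3 were higher and 0 lower in kidney at 1 h, where 0.208% of all genes were called higher in PH3. Fosb rose by 2.52 ± 0.38 (SE, adjusted p = 0.00110), Nr4a3 by 1.60 ± 0.22 (adjusted p = 0.000230) and Nr4a1 by 1.40 ± 0.27 (adjusted p = 0.0113), all by limma. These are early response genes for transcription factors, and for each all 4 PH3 kidneys lay above all 4 Air kidneys, which 1.39% of all genes did. Nr4a1 did not pass without PH3 rat 98 or without Air rat 107. In heart at 6 h, where 1.41% of all genes were called higher in PH3, 1 member passed. This was Nr4a3, with 6.18, 5.35, 6.23 and 7.12 in PH3 hearts and 4.55, 4.68, 4.62 and 5.49 in Air hearts (1.39 ± 0.33, adjusted p = 0.0192 by limma). It did not pass without PH3 rat 141, where the difference was 1.09, or without Air rat 126, 132 or 138. In kidney at 3 h, when Sct was highest, 0 of the 11 passed, with a median change of 0.41 beside 0.01 for all genes. An unadjusted p under 0.05 (limma) was found for 6 of the 11 there. Over all 16 comparisons it was found in 37 of 176 tests of this list. The share of all genes under that rule is not given here, so these counts do not show whether the list differed from other genes. The list's median was 0.71 in lung at 3 h, where 0 passed and the median of all genes was -0.07, and 0.44 in heart at 6 h, beside -0.01. When each comparison was fitted on its own arrays alone, 0 of these 8 calls of list members in heart at 6 h and kidney at 1 h passed. Nppb in heart and Nr4a1 in kidney also did not pass with the rat as a block.

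The genes whose levels were most like those of Gal and Sct across a tissue are given with Pearson's r over its arrays, as a description without a test, since arrays share groups and rats. Over 29 heart arrays, Tsc22d1, a transcription regulator, had r = 0.88 with Gal, followed by Pla2g4a, a phospholipase (0.87), Xdh, the xanthine dehydrogenase (0.86), Crispld2, a secreted protein (0.86), and Sgms1, a sphingomyelin synthase (0.86). Without the 2 arrays whose Gal level lay farthest from the median, r of Tsc22d1 was 0.67 and that of Xdh 0.79. With each array taken as its deviation from its group mean, r of Tsc22d1 was 0.81, rank 4 of all genes.

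Over 21 lung arrays the closest were Wnk2, a kinase (0.95), Edem1, a protein of endoplasmic reticulum quality control (0.91), Cd163, the scavenger receptor of macrophages (0.91), Igfbp3, which binds insulin-like growth factors (0.91), and Crispld2 again (0.91). The 4 PH3 lungs at 3 h stand apart from the other 17 in Gal, so these values largely state which genes also separate those 4 arrays. As deviations from group means, r of Wnk2 was 0.78 and that of Cd163 0.48.

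Over 32 brain arrays the values were lower, with Plekhb1 at 0.63, Klk6, a protease of oligodendrocytes, at 0.62, Gsn, the actin-severing gelsolin, at 0.61, and Phgdh, an enzyme of serine synthesis, and Tgm4, a transglutaminase, at 0.60 each. Over the 27 marker lists, r of the mean level with brain Gal ran from -0.38 for cardiomyocytes to 0.53 for Schwann cells, of which 2 markers were measured.

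Over 32 kidney arrays the closest to Sct were Tacc2, a centrosome protein (0.84), Hdhd3, a hydrolase domain protein (0.81), Dlg5, a scaffold protein (0.79), Chac1, an enzyme that breaks down glutathione (0.78), and Sh3rf1, a ubiquitin ligase (0.77). As deviations from group means r was 0.39 for Tacc2 and 0.62 for Hdhd3. No correlation of Gal is given for kidney, where its values fell into separate ranges.

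Gal and Sct can be set side by side on the kidney arrays. At 1 h PH3 rats 98, 115 and 116 had Gal at 8.27 to 8.73 and Sct at 4.62 to 5.41, and rat 109 was the lowest of the 4 for both, with 5.70 for Gal and 4.40 for Sct. At 3 h rat 122 had the highest value of all PH3 kidneys for both, 9.18 for Gal and 6.03 for Sct. The other 3 PH3 kidneys at 3 h had Gal in the low range, at 4.92 to 5.21, and Sct at 5.11 to 5.24, above every Air kidney. Rat 134 at 6 h (8.68 for Gal and 4.82 for Sct) and rat 91 at 24 h (8.54 and 4.94) were also the highest PH3 kidneys of their time for both. The kidney arrays of rats 122, 134 and 91 each had the lowest mean correlation with their own group, 0.9685, 0.9725 and 0.9797. Whether these joint high values reflect arrays that differ from their group in many genes was not tested. The highest Gal value of all kidneys, 9.72 in Air rat 108 at 3 h, stood beside a Sct of 3.93.

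**Figure D5:**
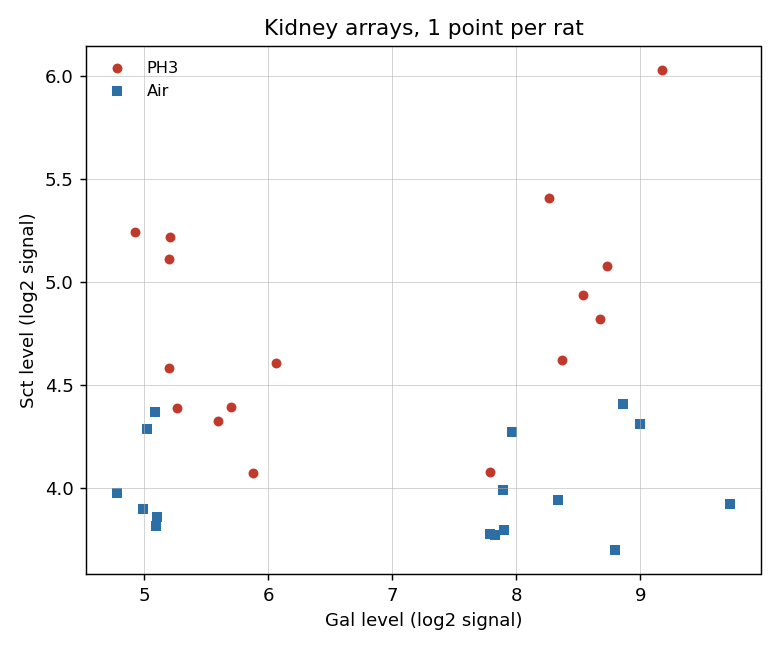
Sct level against Gal level (log2 signal) on the 32 kidney arrays, 1 point per rat, PH3 as red circles and Air as blue squares. Gal leaves a gap between 6.06 and 7.78, PH3 and Air arrays lie on both sides of it, and all points with Sct above 4.41 are PH3.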

How the data were processed

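Affymetrix arrays of rat heart, lung, kidney, brain and liver were analysed from the deposited log2 values, which per the labels are RMA summaries. RMA subtracts background, sets arrays to 1 common distribution and summarises the probes of each set. Affymetrix Expression Console, Partek and RMA are named in the submitters' processing notes, with versions not given in the sources used here. Values ran from 2.60 to 14.41. Arrays have no read depth, and the number of arrays limits the precision. Of 31139 probe sets, 19068 had 1 gene symbol, 573 several and 11498 none. Each of 13438 genes was read from its probe set with the highest mean in the tissue.

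Per tissue, limma 3.58.1 (R 4.3.3) estimated a mean for every group from the arrays of that tissue together, followed by eBayes with a trend. P-values were adjusted by Benjamini-Hochberg over all genes of a comparison, with 0.05 as the threshold. The fit was tested on simulated data. The members, lists, markers and tests were chosen with earlier results of these data known. Genes named were Gal and Sct, the receptors, up to 4 passing members of each other list per comparison, the 5 genes most correlated with each member per tissue, and markers. Atf3 in heart at 6 h was added after its values were seen. Numbers in the labels name rats, and 1 rat can give several tissues. At 6 h, PH3 rat 135 (brain) and PH3 rat 134 (other tissues) count as separate animals, as labelled. The alternatives were another choice of probe sets, arrays, prior, weights, scaling and filter, each array left out, and a rat block. Promoter letters come from RefSeq (Gal matched, Sct is named only). Blood was not analysed here. Plots used matplotlib 3.10.9 (Python 3.11.15).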

Additional observations from a re-analysis of the deposited data

Results flagged for a closer look

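In groups of 4 arrays, a value was singled out when its gap to the nearest other array took most of the group's range (Dixon's criterion at 95%). Of 56 groups of 4 examined for the 2 genes, 3 were singled out, all in kidney, and chance gives about 1 in 20. Gal of PH3 rat 109 in kidney at 1 h was 5.70, with the nearest other at 8.27. Gal of PH3 rat 122 in kidney at 3 h was 9.18, with the nearest other at 5.21. Both stand across the gap that divides all kidney arrays. Sct of the same PH3 rat 122 in kidney at 3 h was 6.03, with the nearest other at 5.24, and the difference of Sct at 3 h without this rat is 1.22. PH3 rat 141, with Gal at 10.78 in heart at 6 h, did not meet the criterion, since the other 3 PH3 hearts were spread from 6.18 to 7.92.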

How the results depend on the processing

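In the 21 tested comparisons of Gal and Sct, none passed in the 135 values with another choice of probe sets, arrays, prior, array weights, scaling, filter or the rat as replicate block, nor in the 162 with 1 array left out, and 5 and 23 of these took the other sign. The 11 comparisons that chose the genes have no call. Their 70 and 82 values under the same alternatives moved by less than 1 SD between replicates. For the 82 this says nothing of stability, since leaving 1 array out cannot move a group mean by 1 SD of that group. Of the 70 and 82 values, 1 and 5 took the other sign, all of them for Gal in heart at 24 h or lung at 1 week. With the replicate block the difference of Gal in heart at 6 h was 2.76, and the estimated correlation between arrays of 1 rat was 0.0052. With array weights it was 2.07, and with 1 array left out it ran from 1.80 to 3.34. The difference of Gal in lung at 3 h ran from 1.75 to 2.37 with 1 array left out, both ends set by which of the 2 Air lungs remained, and that of Sct in kidney at 3 h from 1.22 to 1.56. Sct could not be tested in tissues where the filter on low signal removed it. Passing list members numbered 4 in heart at 6 h and 4 in kidney at 1 h, and 0 in both with the comparison's own arrays alone. In lung at 3 h the number was 0, but 11 with array weights, 6 with the replicate block and 2 with its own arrays alone. In brain at 24 h it was 0, and 8 with the replicate block. In heart at 6 h it was 2 without PH3 rat 141, Air rat 132 or Air rat 138. The cause was not tested. Low signal limits Sct in all tissues outside kidney and in Air kidneys. The median of PH3 kidneys, 4.72, also lay below the median signal of the arrays, 5.08 to 5.52.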
